A study of Mus musculus with 6 samples.

Results

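Chemokines are small secreted proteins that draw white blood cells along a gradient, and stromal cells of the lung are among their sources. They bind G protein-coupled receptors on the recruited cell: CXC chemokines with an ELR motif act through CXCR2 on neutrophils, many CC chemokines act through receptors such as CCR1 and CCR2 on monocytes and macrophages, and CXCL9, CXCL10, CXCL13, CCL17, CCL19 and CCL21 act mainly on lymphocytes. Eotaxins such as CCL11 act through CCR3 on eosinophils. Here the chemokine genes of cultured lung mesenchymal stromal cells (LMSCs) were described by these recruited cells.

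Members were all genes whose symbol is Ccl or Cxcl followed by a number (with 1 letter allowed for Ccl), Cx3cl1 or Xcl1. The symbol alone decided membership, but the rule itself was chosen with earlier results of these data known. The members numbered 44 of the 34745 genes listed, under 39 symbols, since Ccl21a, Ccl21c and Ccl27a were listed under several identifiers. By recruited cell they comprised 5 neutrophil, 11 monocyte, 25 lymphocyte and 3 eosinophil chemokine genes. Many chemokines recruit more than 1 cell type, and each gene was placed with the cell its name is most often tied to.

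The libraries were made from LMSCs of MMTV-PyMT mice, in which the mouse mammary tumor virus promoter drives polyoma middle T antigen in the mammary epithelium, so that mammary tumors arise and spread to the lung. There were 2 libraries of A-LMSCs (adenoma stage, labelled E-LMSCs, mice of 6 to 7 weeks), 2 of PM-LMSCs (pre-metastatic stage, labelled L-LMSCs, 9 to 10 weeks) and 2 of M-LMSCs (metastatic stage, 13 to 14 weeks). All 6 came from cells that carry the same transgene, had been depleted of CD45+ cells with microbeads per the study's methods, and were grown in serum-containing medium to passage 3. Stage and age rise together and cannot be told apart. The ages are those given with the samples, and the study's methods give somewhat older mice for the 2 earlier stages. The study also sequenced a further library of each stage that is not among these 6. The study describes the replicates of its sequencing as mice, but the labels do not tie a library to a mouse, and the p-values below measure the spread between these libraries.

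Values were FPKM (fragment counts scaled to exon length in kilobases and to the library total), at an implied depth of 14778899 to 20846979 fragments a library. The stromal markers Col1a1 (761 to 1472 FPKM) and Pdgfrb (61.1 to 89.1 FPKM) were high in all 6 libraries. The haematopoietic gene Ptprc, which encodes CD45, did not exceed 0.0987 FPKM but had 12 to 44 fragments in every library. S100a9 and Ly6g were listed at 0 throughout. Macrophage-associated transcripts were nevertheless present: Lyz2 ranged from 60.6 to 147 FPKM in the A- and PM-LMSC libraries and reached 362 and 250 FPKM in the M-LMSC libraries.

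Monocyte chemokines made up nearly all of the chemokine signal at every stage. Their FPKM summed to between 93.3% and 95.7% of all chemokine FPKM in a library, against 3.82% to 6.33% for lymphocyte, 0.183% to 0.432% for neutrophil and at most 0.0911% for eosinophil chemokines. Ccl2 and Ccl7, a pair of CCR2 ligands, alone contributed 45.9% (A-LMSC replicate 2) to 63.7% (A-LMSC replicate 1). The summed chemokine level was 109 and 76.1 FPKM at the adenoma, 137 and 101 at the pre-metastatic and 189 and 134 at the metastatic stage. At every stage replicate 1 was the higher, and the A- and PM-LMSC ranges overlapped, as did those of PM- and M-LMSCs.

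**Figure D1:**
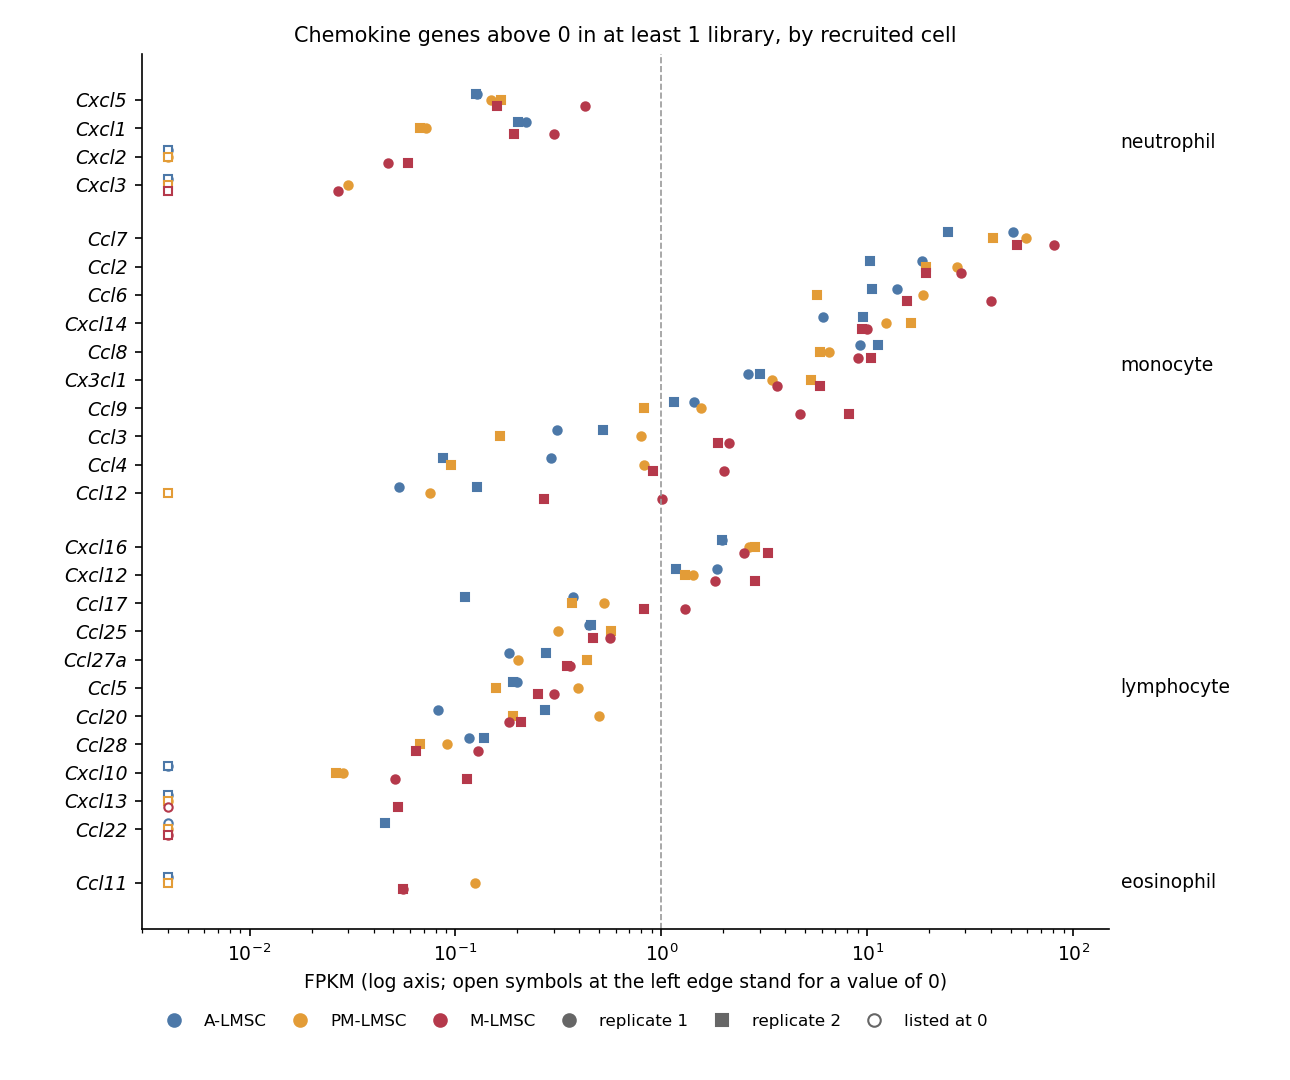
FPKM (log axis) of the 26 chemokine genes listed above 0 in at least 1 library, 1 row per gene, grouped by recruited cell. Circles are replicate 1 and squares replicate 2 of A-LMSCs (blue), PM-LMSCs (orange) and M-LMSCs (red), open symbols at the left edge stand for a listed value of 0, and the dashed line marks 1 FPKM. Monocyte chemokines reach 80.4 FPKM (Ccl7), while all neutrophil chemokines lie at or below 0.427 FPKM.

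Of the 44 genes, 9 had a mean of at least 1 FPKM and entered the test across genes, 17 were above 0 but under that level, and 18 were listed at 0 in every library. The 9 were Ccl7, Ccl2, Ccl6, Cxcl14, Ccl8, Cx3cl1 and Ccl9 among monocyte chemokines and Cxcl16 and Cxcl12 among lymphocyte chemokines. The order of their means was Ccl7 (51.6 FPKM), Ccl2 (20.5), Ccl6 (17.4), Cxcl14 (10.6), Ccl8 (8.71), Cx3cl1 (3.99), Ccl9 (2.98), Cxcl16 (2.55) and Cxcl12 (1.74). The library ranges of each neighbouring pair in this order overlapped except that of Ccl8 and Cx3cl1, where the lowest Ccl8 value (5.91 FPKM) stood just above the highest Cx3cl1 value (5.88 FPKM). The values had been divided by the summed length of all annotated exons, which counts overlapping exons of different transcripts more than once, so genes with many transcripts may read low. With the merged exon length instead, and each fragment taken as counted once, the mean was 34.4 FPKM for Ccl2, 3.87 FPKM for Cxcl16 and 2.76 FPKM for Cxcl12. Cxcl16 then stood above Ccl9 (3.15 FPKM), and the rest of the order was as before.

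Most monocyte chemokine genes lie in 2 stretches of chromosome 11, and neighbours there differed widely in level. In the annotation of GRCm38, Ccl2 (ENSMUSG00000035385, chr11:82035571-82037453, plus strand) and Ccl7 (ENSMUSG00000035373, chr11:82045712-82047525, plus strand) are followed by the eosinophil gene Ccl11 (chr11:82057823-82062955), by Ccl12 (chr11:82101845-82103400) and by Ccl8 (chr11:82115185-82116799). Ccl11 reached at most 0.125 FPKM beside a Ccl7 value of 59.2 FPKM in the same library. The other stretch holds Ccl9 (ENSMUSG00000019122, chr11:83572919-83578636, minus strand), Ccl6 (chr11:83587882-83593087, minus strand), Ccl3 (chr11:83647844-83649355) and Ccl4 (chr11:83662584-83664683). The neutrophil genes Cxcl5, Cxcl3, Cxcl15, Cxcl1 and Cxcl2 lie together on chromosome 5. The other tested genes stand apart from these clusters: Cx3cl1 (chr8:94772009-94782427), Cxcl14 (chr13:56288643-56296551), Cxcl12 (chr6:117168535-117181367) and Cxcl16 (chr11:70453983-70459984).

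Promoter windows from RefSeq (GRCm38.p6, 250 bases before to 50 after a gene's start) were held for 27 of the 39 symbols, among them 6 of the 9 tested genes. The windows of 4 genes are shown because they set the 2 genes that differed most in M-LMSCs, Ccl6 and Ccl9, beside Ccl8, which was lowest in PM-LMSCs, and Cxcl1, a neutrophil chemokine near the bottom of the range. Capitals mark matches, on either strand, to TATAAA or to the consensus motif of NF-kB, the factor through which TNF and IL-1 induce many chemokines.
Ccl6 (chr11:83593038-83593337, minus strand): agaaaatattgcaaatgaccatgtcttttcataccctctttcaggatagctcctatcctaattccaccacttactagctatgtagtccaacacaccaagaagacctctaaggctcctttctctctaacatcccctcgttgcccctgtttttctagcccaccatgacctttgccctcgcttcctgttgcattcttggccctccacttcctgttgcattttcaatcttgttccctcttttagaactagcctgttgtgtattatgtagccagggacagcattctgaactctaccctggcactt
Ccl9 (chr11:83578587-83578886, minus strand): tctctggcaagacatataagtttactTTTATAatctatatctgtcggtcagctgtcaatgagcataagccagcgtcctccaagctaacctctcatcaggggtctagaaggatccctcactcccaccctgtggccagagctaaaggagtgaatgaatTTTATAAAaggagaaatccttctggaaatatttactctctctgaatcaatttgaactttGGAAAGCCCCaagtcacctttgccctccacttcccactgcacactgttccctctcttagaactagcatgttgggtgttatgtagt
Ccl8 (chr11:82114935-82115234, plus strand): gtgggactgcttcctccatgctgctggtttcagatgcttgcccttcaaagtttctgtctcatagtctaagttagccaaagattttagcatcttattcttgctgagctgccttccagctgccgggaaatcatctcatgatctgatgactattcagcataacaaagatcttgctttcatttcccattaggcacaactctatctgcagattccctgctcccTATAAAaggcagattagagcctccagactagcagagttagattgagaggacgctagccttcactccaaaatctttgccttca
Cxcl1 (chr5:90890995-90891294, plus strand): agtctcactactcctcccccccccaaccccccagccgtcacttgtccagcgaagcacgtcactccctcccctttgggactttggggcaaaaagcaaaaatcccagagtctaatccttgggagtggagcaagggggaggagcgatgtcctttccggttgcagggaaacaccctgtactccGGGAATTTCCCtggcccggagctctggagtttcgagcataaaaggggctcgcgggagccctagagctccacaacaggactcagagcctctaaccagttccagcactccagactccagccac
The NF-kB letters were found in 1 of the 6 tested genes with a window (Ccl9), in 6 of the 13 genes above 0 but under the level of the test (Ccl20, Ccl27a, Cxcl1, Cxcl2, Cxcl3 and Cxcl10) and in 1 of the 8 genes listed at 0 (Ccl1), against 8.46% of all 32851 windows. TATAAA was found in 3, 4 and 3 of these genes, against 13.6% of all windows. The window of Ccl6 holds neither. In Ccl9 the NF-kB match lies on the opposite strand, 35 to 26 bases before the start, and the run of 8 capitals holds overlapping TATAAA matches on both strands. The Ccl8 match to TATAAA lies 32 to 27 bases before its start, and the run of 11 capitals in Cxcl1 holds overlapping NF-kB matches on both strands. These are matches of letters and no measurement of binding.

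The comparison of PM-LMSCs with A-LMSCs asked which chemokine genes had moved before metastases appeared. Ccl2, Cxcl14, Cx3cl1 and Cxcl16 were higher in both PM-LMSC libraries than in both A-LMSC libraries, and Ccl8 was lower in both. Such separation upward was found in 19.6% of the 10279 genes tested, and its share downward was not counted. With limma on log2(FPKM + 1) and 1 mean per stage, 0 of the 9 genes passed an adjusted p of 0.05, where 0.0389% of all genes did. At an unadjusted p of 0.05, 2 were higher (Cxcl14 and Cxcl16) and 1 lower (Ccl8), against 6.53% of all genes in either direction. The median log2 difference of the 9 genes was 0.34, and that of all tested genes was 0.01.

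Libraries with the same replicate number deviated together from their stage means, so each comparison was also fitted with the replicate number as a block. The labels do not say what such libraries share, so calls with the block rest on a pairing taken from these same values. With this block 0.292% of all genes passed between PM- and A-LMSCs and none of the 9 chemokine genes did. Ccl2 came nearest (adjusted p = 0.0712 by limma).

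M-LMSCs were compared with A-LMSCs across the whole course. Ccl2, Ccl6, Ccl7, Ccl9, Cx3cl1 and Cxcl16 were higher in both M-LMSC libraries than in both A-LMSC libraries, as were 27.1% of all genes tested. Without the block 0 of the 9 genes passed (0.0681% of all genes did), 2 reached an unadjusted p of 0.05 (Ccl9 and Cxcl16, both higher, against 14.6% of all genes), and Ccl9 had the smallest adjusted p at 0.0892 by limma. With the block 3 of the 9 passed, all higher: Ccl2, Ccl7 and Ccl9, where 3.92% of all genes passed in either direction. They were lost when the filter on low values was dropped: with the block and no filter, 0 of the 26 chemokine genes above 0 passed (smallest adjusted p = 0.147 by limma), and 0 passed in each of the other comparisons. The median log2 difference was 0.57 for the 9 genes and 0.03 for all genes.

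Between M- and PM-LMSCs, Ccl8, Ccl9 and Cxcl12 were higher in both M-LMSC libraries, a separation seen in 17.8% of all genes tested. None of the 9 passed without the block (0.0292% of all genes did) or with it (0.418%), and 3 reached an unadjusted p of 0.05 without it, all higher (Ccl8, Ccl9 and Cxcl12, against 8.94% of all genes). Both comparisons with A-LMSCs share the A-LMSC libraries and are not independent of each other.

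When the PM- and M-LMSC libraries were set jointly against A-LMSCs, 0 of the 9 genes passed without the block (0.126% of all genes did) and 2 passed with it, Ccl2 and Ccl7, where 2.05% of all genes passed. At an unadjusted p of 0.05 without the block, 5 were higher and 1 lower, against 11.2% of all genes. The 4 libraries of the later stages all exceeded both of A-LMSCs for Ccl2, Cx3cl1 and Cxcl16, and did so for 10.7% of all genes tested. Genes that pass a mean of 1 FPKM partly because 1 stage is high are bound to differ between stages, so these counts describe the 9 genes and not all 44.

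**Figure D2:**
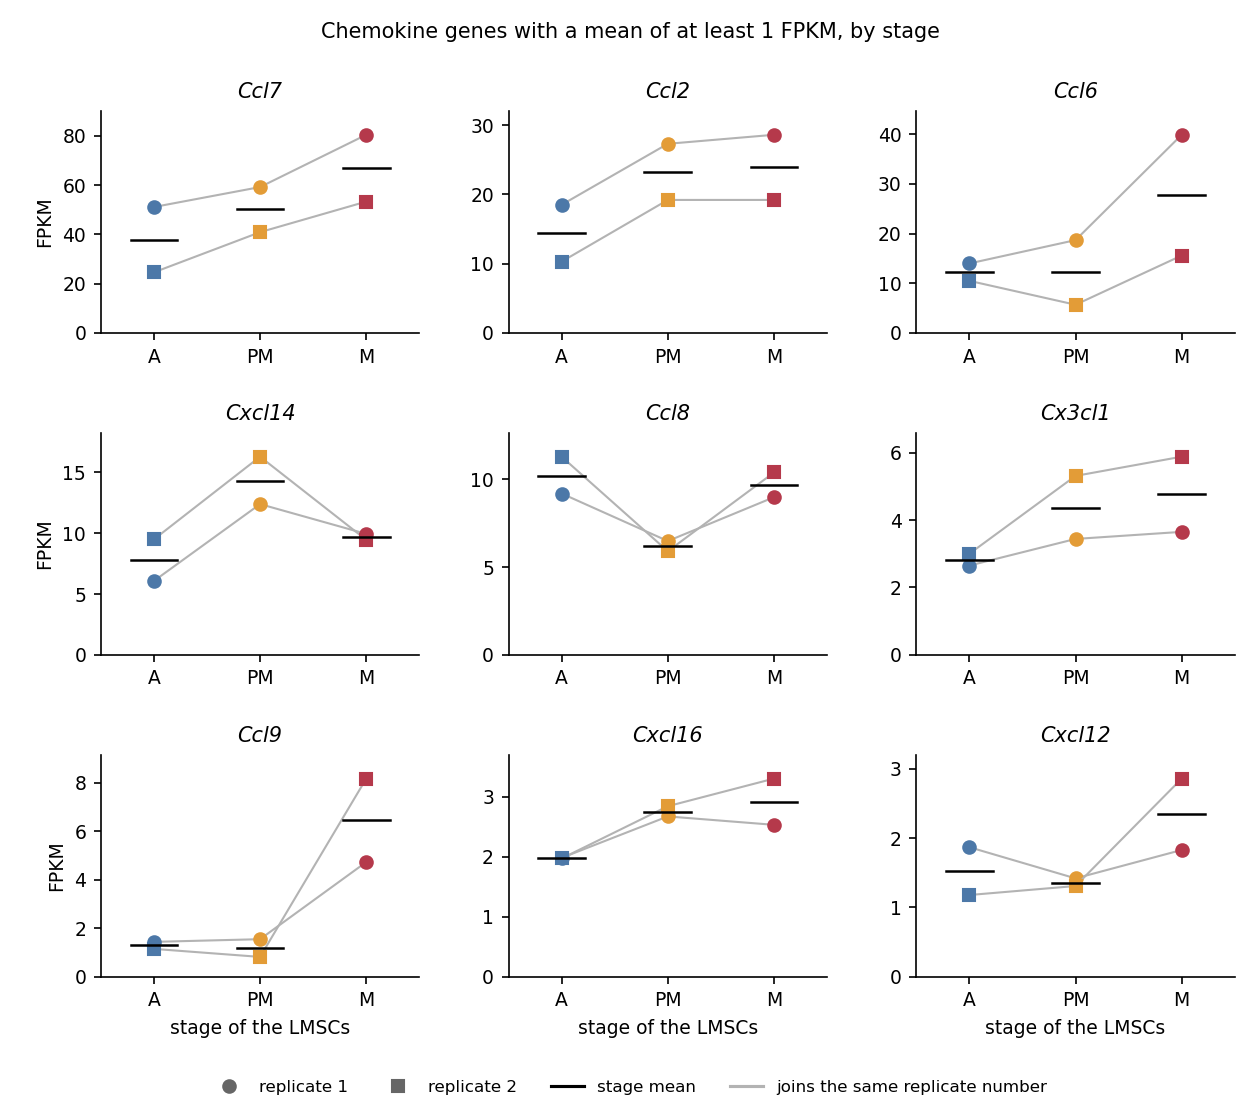
FPKM of the 9 chemokine genes that averaged 1 FPKM or more in A-, PM- and M-LMSCs (linear axes from 0). Circles are replicate 1, squares replicate 2, black bars stage means (n = 2) and grey lines join libraries with the same replicate number. Ccl7 and Ccl2 climb on both lines from A- to PM-LMSCs, Ccl9 climbs most between PM- and M-LMSCs, after a slight rise on the replicate 1 line (1.44 to 1.55 FPKM) and a fall on that of replicate 2 (1.15 to 0.82 FPKM), and Ccl8 dips in PM-LMSCs.

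**Figure D3:**
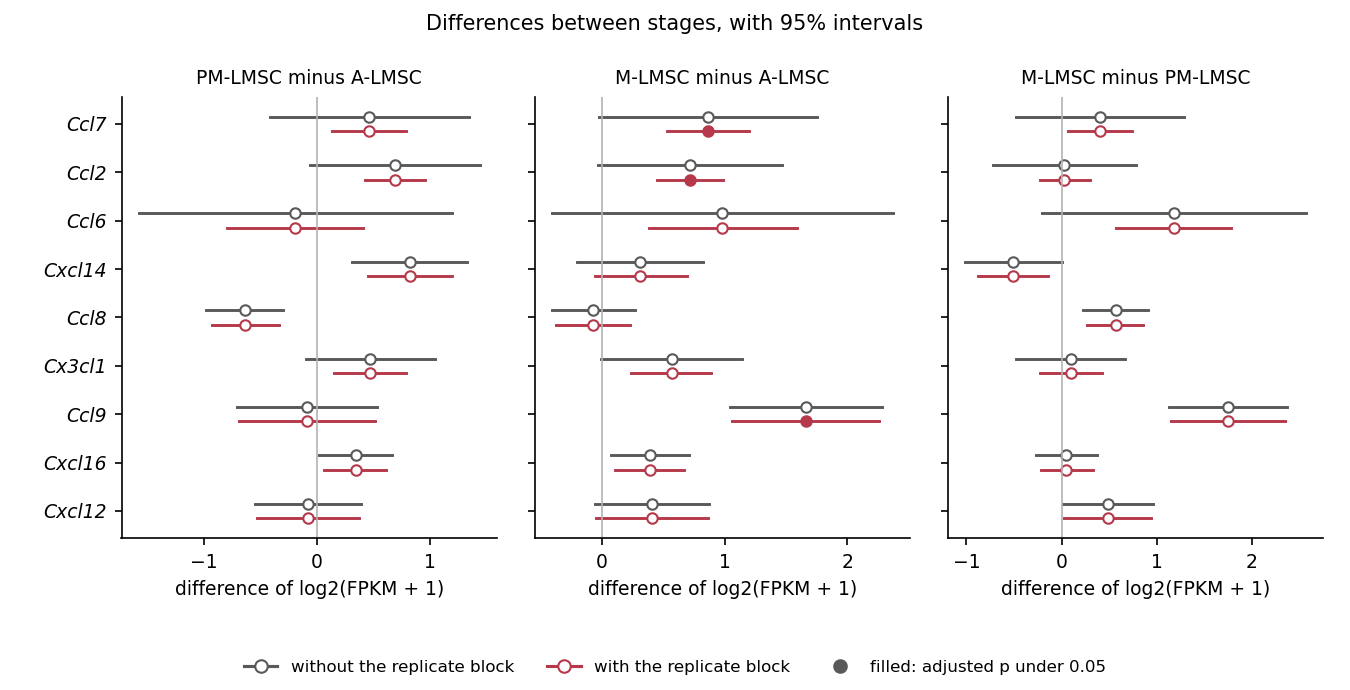
Differences between stages of the 9 tested chemokine genes on the log2(FPKM + 1) scale, with 95% intervals from limma without (grey) and with (red) the replicate number as a block. Filled points passed an adjusted p of 0.05: these are Ccl7, Ccl2 and Ccl9 in M-LMSCs against A-LMSCs with the block, and none without it.

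Ccl7 was the most abundant monocyte chemokine and its 2 replicate numbers stood apart at every stage. Here and below values are given for replicate 1 and then replicate 2. Ccl7 read 51.1 and 24.6 FPKM (A-LMSC), 59.2 and 40.9 FPKM (PM-LMSC) and 80.4 and 53.3 FPKM (M-LMSC), or 37.9 ± 18.8, 50.1 ± 12.9 and 66.9 ± 19.1 FPKM (SD, n = 2). Replicate 1 was above replicate 2 at every stage, and the M-LMSC values were 1.57-fold and 2.17-fold the A-LMSC value of the same number. Against A-LMSCs the log2 difference in M-LMSCs was 0.86 (SE 0.37, adjusted p = 0.348 by limma) without the block and 0.86 (SE 0.14, adjusted p = 0.0274) with it. Without A-LMSC replicate 2, the lowest library, the difference fell to 0.35, and without A-LMSC replicate 1 it was 1.38.

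Ccl2, the principal CCR2 ligand, was lower in level and also higher in later-stage than in A-LMSC libraries of the same replicate number. Its values were 18.5 and 10.3 FPKM at the adenoma, 27.3 and 19.2 at the pre-metastatic and 28.6 and 19.2 at the metastatic stage. Every later-stage library lay above both A-LMSC libraries, by as little as 19.2 over 18.5 FPKM. The M-LMSC difference on the log2 scale was 0.72 (SE 0.31, adjusted p = 0.355 by limma) without the block and 0.72 (SE 0.11, adjusted p = 0.025) with it. That difference was 0.33 without A-LMSC replicate 2 and 1.11 without A-LMSC replicate 1. Between M- and PM-LMSCs the difference was 0.03, with a 95% interval of -0.72 to 0.78 that leaves room for a change in either direction. The ratio of Ccl7 to Ccl2 FPKM stayed within a narrow span, from 2.14 in PM-LMSC replicate 2 to 2.81 in M-LMSC replicate 1. Its size depends on the exon length used: the merged length raises Ccl2 values 1.68-fold and leaves those of Ccl7 unchanged, which lowers the ratio. With both later stages against A-LMSCs, Ccl2 differed by 0.70 (SE 0.10, adjusted p = 0.0297 by limma with the block, 0.422 without) and Ccl7 by 0.66 (SE 0.12, adjusted p = 0.0499 with the block, 0.495 without). The last call of Ccl7 was lost with the block on the merged exon length (adjusted p = 0.0508 by limma).

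Ccl9, a CCR1 ligand also known as MIP-1 gamma, showed the widest separation of the tested genes. It read 1.44 and 1.15 FPKM (A-LMSC), 1.55 and 0.82 FPKM (PM-LMSC) and 4.73 and 8.17 FPKM (M-LMSC). These values correspond to 97, 65, 74, 42, 252 and 437 fragments recovered from the table. Both M-LMSC libraries stood well above the other 4, at 4.97-fold the A-LMSC mean and 5.43-fold the PM-LMSC mean. On the log2(FPKM + 1) scale, which understates changes of low genes, M-LMSCs exceeded A-LMSCs by 1.66 (SE 0.26, adjusted p = 0.0892 by limma) without the block and by 1.66 (SE 0.25, adjusted p = 0.025) with it. Against PM-LMSCs the difference was 1.75 (SE 0.26, adjusted p = 0.154 by limma, and 0.0519 with the block). Without M-LMSC replicate 1, Ccl9 passed in both comparisons without the block (adjusted p = 0.0217 and 0.0297 by limma), with the lone M-LMSC library assumed to vary like the other stages. PM- and A-LMSCs differed by -0.09, with a 95% interval of -0.71 to 0.53.

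Ccl6, the neighbour of Ccl9 and another CCR1 ligand, was more variable. Its values were 14.0 and 10.5 FPKM at the adenoma, 18.7 and 5.69 at the pre-metastatic and 39.9 and 15.6 at the metastatic stage. The lower M-LMSC library lay below the higher PM-LMSC library, so only the A- and M-LMSC ranges were apart. The M-LMSC difference from A-LMSCs was 0.98 (SE 0.58, adjusted p = 0.463 by limma; 0.0832 with the block). Without M-LMSC replicate 1 the difference was 0.33, and without M-LMSC replicate 2 it was 1.63. The PM-LMSC difference of -0.20 became 0.58 without PM-LMSC replicate 2.

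Several haematopoietic markers moved in the same libraries as Ccl9 and Ccl6. Of the 14 markers listed, 11 were above 0 in some library and 7 were highest in both M-LMSC libraries. That separation was seen in 13% of the 14931 genes that averaged 3 fragments or more. Mpo was lowest in both M-LMSC libraries (0.0125 and 0.025 FPKM), and S100a8 and Cd3e overlapped between stages. Ptprc was higher in both M-LMSC libraries (0.0987 and 0.0492 FPKM) than in both A-LMSC libraries (0.0427 and 0.0254 FPKM). Its PM-LMSC range overlapped both. Such separation of M- from A-LMSCs was seen in 27.1% of the 10279 genes tested. The FPKM of the 14 markers summed to 123 to 130 in A-LMSCs, 75 to 165 in PM-LMSCs and 281 to 390 in M-LMSCs, mostly from Lyz2. The tested markers numbered 4, and M-LMSCs differed from A-LMSCs in none without the block and in 3 with it (Lyz2, Cd68 and Cd14, all higher), where 0.0681% and 3.92% of all genes were called. Cd68 read 5.85 and 6.44 FPKM (A-LMSC), 6.84 and 5.48 FPKM (PM-LMSC) and 9.83 and 12.2 FPKM (M-LMSC). Adgre1, which encodes F4/80, read at most 0.694 FPKM in the A- and PM-LMSC libraries and 2.09 and 1.52 FPKM in M-LMSCs. Ptprc was at or below 0.0987 FPKM in all 6 libraries. In bulk samples more cells of a type and more RNA per cell cannot be told apart, and the part of these transcripts in the chemokine values was not tested.

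Ccl8 is a monocyte chemoattractant protein encoded beside Ccl12. Alone among the tested chemokine genes it was lowest in both PM-LMSC libraries, a pattern not counted over all genes. It read 9.20 and 11.3 FPKM at the adenoma, 6.49 and 5.91 at the pre-metastatic and 8.99 and 10.4 at the metastatic stage. With a short transcript these values rest on 48 to 101 fragments a library. PM-LMSCs fell by 0.64 on the log2 scale against A-LMSCs (SE 0.14), but this did not pass across all genes (adjusted p = 0.391 by limma; 0.104 with the block). M-LMSCs exceeded PM-LMSCs by 0.57 (SE 0.14, adjusted p = 0.334 by limma; 0.121 with the block). The M-LMSC difference from A-LMSCs was -0.07, with a 95% interval of -0.41 to 0.27.

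Cxcl14, a tissue chemokine that attracts monocytes and dendritic cell precursors, took the opposite course. Its values were 6.08 and 9.50 FPKM (A-LMSC), 12.4 and 16.3 FPKM (PM-LMSC) and 9.95 and 9.46 FPKM (M-LMSC). Both PM-LMSC libraries were above the other 4, a pattern also not counted over all genes. The PM-LMSC difference was 0.82 (SE 0.21, adjusted p = 0.457 by limma; 0.101 with the block), and M-LMSCs differed from PM-LMSCs by -0.51 (SE 0.21, adjusted p = 0.563).

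Cx3cl1, or fractalkine, is a membrane-bound chemokine whose receptor CX3CR1 marks monocytes and macrophages. It read 2.65 and 3.00 FPKM at the adenoma, 3.44 and 5.31 at the pre-metastatic and 3.65 and 5.88 at the metastatic stage. All later-stage libraries exceeded both A-LMSC libraries, and here replicate 2 was the higher at each stage, whereas replicate 1 was the higher for Ccl7, Ccl2 and Ccl6. The M-LMSC difference was 0.57 (SE 0.24, adjusted p = 0.345 by limma; 0.0697 with the block).

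Among lymphocyte chemokines only Cxcl16 and Cxcl12 reached the level of the test. Cxcl16, a membrane-bound ligand of CXCR6, read 1.98 and 1.97 FPKM (A-LMSC), 2.67 and 2.84 FPKM (PM-LMSC) and 2.53 and 3.30 FPKM (M-LMSC). The 2 A-LMSC libraries were nearly equal and lay below the other 4. The differences were small, 0.34 in PM-LMSCs (SE 0.13, adjusted p = 0.736 by limma; 0.273 with the block) and 0.39 in M-LMSCs (SE 0.13, adjusted p = 0.269; 0.111 with the block). Its exons share 552 bases with those of Zmynd15 on the opposite strand, and whether the counting used strand was not given in the sources used here, so reads of the 2 genes may not be told apart.

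Cxcl12, the stromal ligand of CXCR4 and ACKR3, was the lowest of the tested chemokines. It read 1.87 and 1.18 FPKM at the adenoma, 1.42 and 1.31 at the pre-metastatic and 1.83 and 2.86 at the metastatic stage. The A- and M-LMSC ranges overlapped. M-LMSCs differed from A-LMSCs by 0.41 (SE 0.20, 95% interval -0.06 to 0.87, adjusted p = 0.394 by limma; 0.245 with the block).

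Neutrophil chemokines were near the floor at every stage. Cxcl1, a CXCR2 ligand, read 0.221 and 0.202 FPKM (A-LMSC), 0.0719 and 0.0669 FPKM (PM-LMSC) and 0.30 and 0.192 FPKM (M-LMSC), which are 13, 10, 3, 3, 14 and 9 fragments. Cxcl5 read 0.126 to 0.427 FPKM, at 5 to 16 fragments. Cxcl2 was listed above 0 only in the M-LMSC libraries (0.0469 and 0.0585 FPKM, 4 and 5 fragments), Cxcl3 only in PM-LMSC and M-LMSC replicate 1 (2 fragments each), and Cxcl15 was listed at 0. For Cxcl1, lowest in both PM-LMSC libraries, a fit of the recovered fragments with limma's voom weights gave -1.45 in PM- against A-LMSCs (SE 0.54, adjusted p = 0.669), and a difference was not detectable at these counts. The platelet CXC chemokine genes Pf4 and Ppbp, whose symbols lie outside the rule, read 0.232 to 2.49 FPKM and 0 to 0.125 FPKM, and the highest Pf4 value was in M-LMSC replicate 1.

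Monocyte chemokines under the level of the test were highest in M-LMSCs. Ccl3, a ligand of CCR1 whose mean of 0.969 FPKM fell just under that level, read 0.313 and 0.522 FPKM at the adenoma, 0.795 and 0.164 at the pre-metastatic and 2.13 and 1.89 at the metastatic stage. In fragments these values are 5, 7, 9, 2, 27 and 24. Ccl4, a macrophage inflammatory protein, had 4, 1, 8, 1, 22 and 10 fragments, and Ccl12, the mouse CCR2 ligand next to Ccl8, had 1, 2, 1, 0, 15 and 4. For all 3 genes both M-LMSC libraries were above the other 4, a separation seen in 13% of the 14931 genes that averaged 3 fragments or more. It was seen in 5 of the 19 chemokine genes at that depth, Ccl9 and Ccl17 being the others. Ccl12 reached that depth only through its M-LMSC libraries, so its separation followed from the filter and adds nothing to the count. In the fit of recovered fragments 0 of these 19 genes were called in M-LMSCs against A-LMSCs without the block, where 0.0402% of all 14931 genes were and 8 chemokine genes reached an unadjusted p of 0.05, against 14.7% of all genes. With the block 5 were called, Ccl2, Ccl4, Ccl6, Ccl7 and Ccl9, where 5.45% of all genes were. Ccl4 differed there by 2.72 (SE 0.60, adjusted p = 0.0394), and Ccl3 by 2.29 (SE 0.59, adjusted p = 0.0611). This blocked fit also called Ccl9 in M-LMSCs against PM-LMSCs (0.636% of all genes passed), and Ccl2 and Ccl7 with both later stages against A-LMSCs (2.65%).

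**Figure D4:**
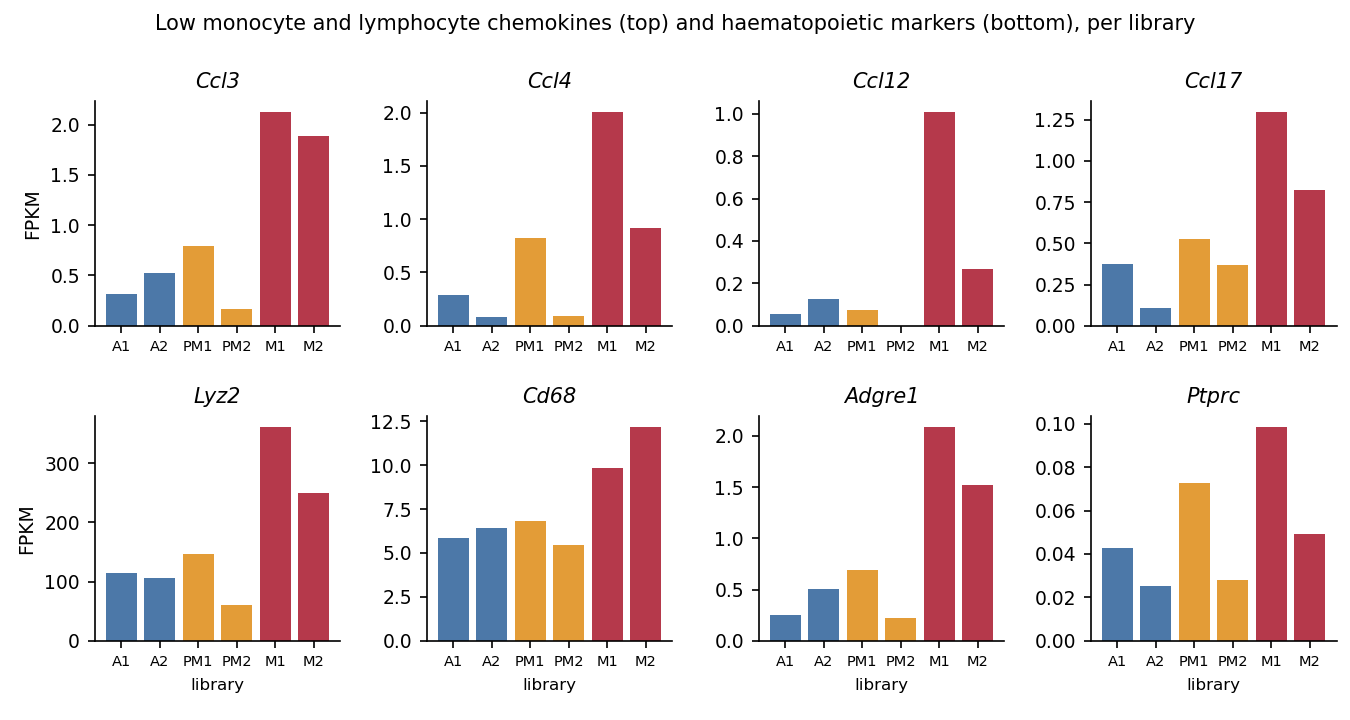
FPKM per library (bars from 0, 1 bar per library, no error bars) of Ccl3, Ccl4, Ccl12 and Ccl17 in the top row and of the haematopoietic markers Lyz2, Cd68, Adgre1 and Ptprc in the bottom row. A1, A2, PM1, PM2, M1 and M2 are the A-, PM- and M-LMSC replicates. In all 8 panels but that of Ptprc both M-LMSC libraries are above the other 4, and Ptprc stays at or below 0.0987 FPKM.

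Of the lymphocyte chemokines under the level of the test, Ccl17, a CCR4 ligand, was also highest in both M-LMSC libraries. It read 0.374 and 0.111 FPKM (A-LMSC), 0.528 and 0.368 FPKM (PM-LMSC) and 1.30 and 0.822 FPKM (M-LMSC), at 1 to 11 fragments. The interferon-induced CXCR3 ligand Cxcl10 was listed at 0 in A-LMSCs and read 0.0264 to 0.114 FPKM in the later stages, and its relatives Cxcl9 and Cxcl11 were listed at 0 throughout. The other lymphocyte chemokines above 0 ranged from 0.314 to 0.567 FPKM for Ccl25, 0.157 to 0.395 FPKM for Ccl5, 0.0827 to 0.496 FPKM for Ccl20 and 0.0645 to 0.138 FPKM for Ccl28. Cxcl13 had 1 fragment in M-LMSC replicate 2 and Ccl22 had 2 in A-LMSC replicate 2. Ccl27a, at 0.183 to 0.436 FPKM under 1 of its identifiers, shares at least 264 near-identical bases with each of 5 other genes, Ccl27b among them, and its value is uncertain. The exons of Cxcl10 share 133 bases with Art3 and those of Ccl25 share 204 bases with Elavl1, both on the opposite strand.

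The lymphoid-organ chemokines Ccl19, Ccl21a, Ccl21b and Ccl21c were listed at 0 in every library, as were Ccl1, Ccl27b and Xcl1. So was the monocyte gene Cxcl17. Of the eosinophil genes Ccl24 and Ccl26 were listed at 0, and Ccl11 had 2, 1 and 1 fragments in PM-LMSC replicate 1 and the M-LMSC libraries. A listed 0 sets no limit here, since mitochondrial mt-Co2, a gene that cells in general express, was also listed at 0.

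Chemokine receptors were low but for 1 atypical receptor. Among 18 signalling chemokine receptors none reached a mean of 1 FPKM and their summed level was 1.63 to 3.94 FPKM. Ackr3, an atypical receptor that takes up CXCL12, was the exception at 13.4 and 10.9 FPKM at the adenoma, 12.2 and 10.8 at the pre-metastatic and 18.2 and 8.10 at the metastatic stage. Its stage ranges overlapped, and it differed by 0.02 between M- and A-LMSCs (adjusted p = 0.985 by limma). Cxcr4, the signalling receptor of CXCL12, was named after its values were seen. It read 0.106 to 0.200 FPKM at the 2 earlier stages against 1.18 and 0.779 FPKM in the M-LMSC libraries. Of the 18 receptors 3 were highest in both M-LMSC libraries, Cxcr4 among them. Over the 14931 genes that averaged 3 fragments or more the share was 13%. Ccr1 stood at 1.15 FPKM in replicate 2 of both A- and M-LMSCs. Cxcr1 went the other way, its M-LMSC values (0.0939 and 0.0234 FPKM) lying under both A-LMSC values (0.391 and 0.177 FPKM).

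Of 19 genes of the pathways that induce chemokines (cytokines, their receptors and NF-kB or interferon pathway genes), 14 reached the level of the test and 0 were called in any comparison by limma, with or without the block. The median log2 difference of these 14 between M- and A-LMSCs was 0.05. The list holds inhibitors too: Nfkbia and Tnfaip3 restrain NF-kB signalling, and Zfp36 destabilises cytokine and chemokine mRNA. The summed level of the 19 genes was 184 to 193 FPKM in all 6 libraries. Of the 5 cytokine genes of this list, Il1b, Tnf, Il17a and Ifng were at or below 0.0595 FPKM, and Il17a was listed at 0. Il1a, which encodes IL-1 alpha, was the highest at 0.194 and 0.0579 FPKM (A-LMSC), 0.48 and 0.128 FPKM (PM-LMSC) and 0.276 and 0.122 FPKM (M-LMSC), on 2 to 14 fragments, with replicate 1 above replicate 2 at each stage.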

How the data were processed

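RNA of 6 LMSC libraries (2 per stage, grouped by the sample labels) was sequenced by the study. The authors deposited FPKM values per gene, 1 column per library. TopHat2 2.0.9 and the genome build mm10 are named in the submitters' processing notes, and the counting tool was not given in the sources used here. A test of low values showed that the deposited FPKM were whole fragment counts divided by a library total and by the summed length of distinct annotated exons: with that length 81.5% of 47387 values under 100 fragments were whole within 0.05, and with a solved nearby length 10196 of the 10279 tested genes (99.2%) were recovered. Recovered fragments summed to 116.6% to 118.1% of the implied totals, so some may have been counted more than once, which was not tested. FPKM were kept as the main unit and no count model was used.

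Genes that averaged 1 FPKM or more over the 6 libraries were tested (10279). Values were fitted as log2(FPKM + 1), with a pseudocount of 1, in R 4.3.3 with limma 3.58.1 (lmFit, eBayes with a trend), 1 mean per stage over all 6 libraries, with Benjamini-Hochberg adjustment over all genes tested and a threshold of 0.05. Fold changes given without a log scale are ratios of FPKM means. Each member with a mean of at least 1 FPKM was named with every value. Members, lists and rule were chosen with earlier results of these data known.

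Deviations from the stage mean correlated between libraries of the same replicate number in all 3 pairs of stages. The r was 0.238 for A- and PM-LMSCs, 0.307 for A- and M-LMSCs and 0.491 for PM- and M-LMSCs. The labels' numbers were therefore taken to pair the libraries, and values from a fit that blocks on this number stand beside those it changed. The labels do not say whether same-numbered libraries share a mouse, litter or batch. With 2 libraries a stage the deviations mirror each other, so r cannot establish a pairing, and calls made only with the block depend on it.

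On simulated data made from the 10279 genes for M-LMSCs against A-LMSCs, limma called 100 of 100 genes changed 4-fold and 92 of 100 changed 2-fold, with 10 false calls, and 0 when none was changed. With a shift shared by replicate number (SD 0.3) it called 26 of the 2-fold genes without the block and 93 with it, with 0 and 12 false calls. The shift was set by hand, so these counts describe the fit under such a shift. They cannot show whether these data hold one.

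The alternatives were a pseudocount of 0.1, no filter on low values, quantile normalization, centring on library medians, a requirement of 1 or more on the log2 scale, blocking on the replicate number, only the libraries compared, and each library left out in turn. Fits on the merged exon length and on recovered fragments (voom weights, mean of at least 3 fragments) were added after seeing the data. Near-identical copies were searched with blastn 2.17.0 (at least 95% identity over 200 bases) in GENCODE M21 transcripts. Python 3.11.15, pandas 2.3.3, numpy 2.4.6 and matplotlib 3.10.9 were used.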

Additional observations from a re-analysis of the deposited data

How the results depend on the processing

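The number of chemokine genes called was 0 in all 4 comparisons without the replicate block, under each scaling, filter, pseudocount and effect-size alternative. With the block it was 3 in M-LMSCs against A-LMSCs and 2 with both later stages together, and it changed no other count. On the merged exon length with the block these counts were 3 and 1 (Ccl2, without Ccl7). On recovered fragments with voom weights and the block they were 5 and 2, and 1 in M-LMSCs against PM-LMSCs (Ccl9). With the block but no filter on low values, 26 chemokine genes entered and 0 were called in each comparison. Leaving out each library in turn gave 0 to 1 calls in M-LMSCs against A-LMSCs and 0 to 1 in M-LMSCs against PM-LMSCs, in both cases Ccl9 without M-LMSC replicate 1. The cause was not tested.

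Of 603 values of 36 log2 differences under the alternatives, 573 kept their sign and their side of the threshold, 18 passed it with the sign unchanged and 12 changed sign, all of these when 1 library was left out. The ranges on leaving out each library were, for PM- against A-LMSCs, -0.05 to 0.97 (Ccl7), -0.98 to 0.58 (Ccl6), -0.33 to 0.16 (Ccl9) and -0.28 to 0.12 (Cxcl12). For M- against PM-LMSCs they were -0.24 to 0.31 (Ccl2), -0.19 to 0.38 (Cx3cl1) and -0.09 to 0.20 (Cxcl16). For M- against A-LMSCs the range was -0.21 to 0.06 (Ccl8), and with both later stages together it was -0.04 to 0.36 (Cxcl12). The test limited to the libraries compared was not run for both later stages together, since that comparison uses all libraries. With 2 libraries a stage, groups of this size allow no check for a library far from the rest. Counting error is largest for genes under 1 FPKM, many of which rest on fewer than 20 fragments.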

Other observations

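Lists of markers of other cell types moved between the same libraries, and their part in the chemokine values was not tested. The 7 mesothelial markers summed to 124 and 182 FPKM (A-LMSC), 303 and 420 FPKM (PM-LMSC) and 205 and 501 FPKM (M-LMSC). In M-LMSCs against A-LMSCs limma called Krt19 lower and 0 higher without the replicate block, where 0.0681% of all genes tested were called, and Krt19 lower and 5 higher with it, where 3.92% were. Upk1b, a uroplakin, read 63.8 and 95 FPKM (A-LMSC) against 106 and 257 FPKM (M-LMSC). The epithelial keratin Krt8 read 0.824 and 2.41 FPKM at the adenoma, 3.94 and 8.68 at the pre-metastatic and 2.91 and 10.4 at the metastatic stage, higher in replicate 2 at each stage. Krt8 and Krt18, the tested epithelial markers, were called higher in M-LMSCs against A-LMSCs only with the block. Epcam was listed at 0 in the A- and PM-LMSC libraries and at 0.326 and 0.473 FPKM in M-LMSCs. It was 1 of 5 among the 10 epithelial markers that were highest in both M-LMSC libraries. That separation was seen in 13% of the 14931 genes that averaged 3 fragments or more. Of the rest, Sftpc was highest in A-LMSC replicate 2 (1.07 FPKM), and Krt5 and Scgb1a1 did not exceed 0.142 FPKM. Of the 6 endothelial markers only Kdr, a VEGF receptor gene, reached the level of the test, at 1.11 and 1.17 FPKM (A-LMSC), 1.31 and 1.44 FPKM (PM-LMSC) and 2.23 and 2.31 FPKM (M-LMSC). Its log2 difference between M- and A-LMSCs was 0.61 (adjusted p = 0.0998 by limma, 0.0285 with the block), and the other 5 did not exceed 0.265 FPKM.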
